A study of Mus musculus with 106 samples.

Results

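Total RNA from the cerebellum of mice of the Gad2 line was compared between HD and control animals. The libraries were picked by their sample labels (cell type Gad2, tissue cerebellum, preparation input, genotype HD or control), which took 3 control and 3 HD libraries, 6 of the 106 in the series. The series asks how neurons of the cerebrum and cerebellum respond to an expanded huntingtin allele, and for most mice it holds RNA bound to tagged ribosomes (IP) and, for some of them, the total RNA of the same homogenate. HD mice carried 1 expanded and 1 normal huntingtin allele (Hdh Q7/Q200), and controls were Hdh Q7/Q7 littermates of about 9 months of age in the same 129S4 strain. Mice of both genotypes also carried Gad2-IRES-Cre and the RiboTag allele of *Rpl22*, which puts an HA tag on ribosomes of Cre-expressing cells. In total RNA neither of these alleles selects cells, so the libraries hold RNA of every cell type in the tissue. The Q200 allele descends from a knock-in line made in 129P2 stem cells, was lengthened by breeding in C57BL/6J, and reached 129S4 by backcrossing, and the sex of the mice is not given in the labels. The 3 control libraries held 30447351, 31901387 and 32070257 counts on mouse genes, and the 3 HD libraries 27239413, 29017536 and 31130072. Levels are given as CPM, the count of a gene scaled to library size with TMM factors, always in the order of libraries 1, 2 and 3 of a group.

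Huntington's disease is caused by an expanded CAG repeat in the huntingtin gene, and it is best known for the loss of striatal projection neurons. The cerebellar cortex is built around Purkinje cells, its only output neurons. They receive excitation from a very large population of small glutamatergic granule cells and inhibition from basket and stellate cells. Cyclins of the D type drive cells from G1 into S phase, Polycomb complexes keep developmental genes silent through histone marks, and both are active while granule cell precursors multiply after birth.

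The labelled tissue was checked on lists of marker genes. All 14 granule cell markers, all 16 Purkinje cell markers and all 11 markers of Golgi, basket and stellate cells were above the count filter. *Cbln3*, a synaptic organiser particular to granule cells, stood at 2172, 2891 and 2104 CPM in controls. *Aldoc*, an enzyme of Purkinje cells and astrocytes, stood at 2998, 2278 and 2771 CPM. Forebrain and brainstem markers were low: of 7 forebrain genes 4 passed the filter, with a summed level of 9.26 to 11.9 CPM per library, and of 8 brainstem genes 1 passed, *Tph2*, at under 1 CPM in every library. None of the 39 clustered *Hox* genes passed the filter, and 18 of them had no count in any of the 6 libraries. These levels are those of cerebellum with little RNA of neighbouring regions.

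The libraries differed among themselves in a way that cut across genotype. On the first principal component, which held 70.9% of the variance, the controls scored −16.5, 45.1 and −13.4 and the HD libraries −10.1, −47.5 and 42.5. Control 2 and HD 3 thus lay together at one end of this axis and HD 2 lay at the other, so each genotype had a library on the same side. Ribosomal protein genes took 2.76%, 1.65% and 2.15% of counts in controls and 2.45%, 3.15% and 1.85% in HD libraries. The 13 mitochondrially encoded genes took 3.24%, 8.32% and 4.57% in controls and 4.59%, 2.13% and 7.09% in HD. Control 2 and HD 3 were low in ribosomal protein and high in mitochondrial transcripts, and HD 2 was the reverse. Genes of the longest transcripts (4895 to 123179 bases) had median deviations from the 6-library mean of −0.07, 0.35 and −0.14 on the log2 scale in controls and −0.10, −0.31 and 0.31 in HD. For the shortest transcripts (204 to 2263 bases) the deviations were 0.08, −0.21 and 0.06 in controls and 0.06, 0.22 and −0.20 in HD. The same libraries therefore stood apart by transcript length, an axis along which RNA of differing integrity also varies. The study checked its RNA on an Agilent Tapestation, but the labels give no values of RNA quality. Immediate early genes varied with the same libraries: *Fos*, induced by neuronal activity, was at 74.6, 3.57 and 12.5 CPM in controls and 34.0, 79.8 and 5.53 CPM in HD libraries. The median within-group SD of log2(CPM + 1) over genes was 0.236 in controls and 0.288 in HD mice, against 0.177 and 0.232 in cerebellar total RNA of the vGluT2 line.

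**Figure D1:**
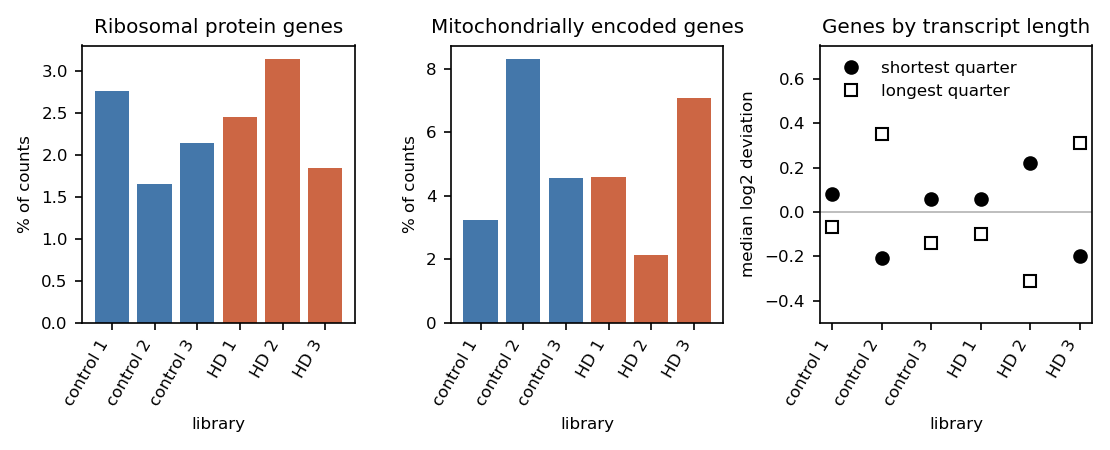
Share of counts (%) in ribosomal protein genes and in mitochondrially encoded genes, and median log2 deviation of genes with the shortest and the longest transcripts from the mean of the 6 libraries, for each library (controls blue, HD orange in the bar panels). Control 2 and HD 3 share a low ribosomal protein share (1.65% and 1.85%) and a high mitochondrial share (8.32% and 7.09%), and HD 2 lies at the opposite end.

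The clearest difference between genotypes was a higher level of *Ccnd1*, which encodes cyclin D1, and beside it stood lower levels of *Igfbp5*, *Grm4* and *Car9*. No gene passed the test of edgeR at an adjusted p (corrected over all genes tested) of 0.05 or less: of 14226 protein-coding genes whose mean count exceeded 10, 0 were called, 0% of those tested. At an unadjusted p under 0.05 there were 315 genes, of which 112 (0.787%) were higher and 203 (1.43%) lower in HD mice. DESeq2, run on the same counts, called 17 genes (0.119%), 5 higher and 12 lower. Without overlap between the libraries of the genotypes were 409 genes with higher levels (2.88%) and 452 with lower levels in HD (3.18%). The median log2 fold change (HD over control) of all genes tested was 0.01, with a median standard error (SE) of 0.258, so the genes named below are given as levels that did not pass edgeR in the fit of these 6 libraries without covariates, and as calls where DESeq2 or an alternative fit made one. The genes named next are among those of smallest p in each direction, with groups that do not overlap and a mean of at least 1 CPM. Their separation is thus part of how they were chosen and is no further result.

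*Ccnd1* (ENSMUSG00000070348.5, chromosome 7, 144929931 to 144939925 on GRCm38) was at 29.5, 31.6 and 33.2 CPM in controls and at 102, 103 and 82.9 CPM in HD mice. All HD libraries lay far above all controls, and the spread within each group was small beside the gap. The log2 fold change was 1.61 (SE 0.171), with an adjusted p of 0.34 from edgeR, the smallest of all genes, and 1.57e-11 from DESeq2. In RNA of whole tissue, more or fewer cells of a type and more or less RNA per cell cannot be told apart, for this and every gene below. *Fam163b*, a gene of little known function with neuronal expression, was at 52.3, 43.2 and 51.5 CPM in controls and 118, 141 and 89.8 CPM in HD mice. Its groups did not overlap, although HD 3 was nearer to the controls than the other HD libraries (log2 fold change 1.25, SE 0.212; adjusted p = 0.81 from edgeR and 0.00137 from DESeq2).

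The other genes with higher levels in HD mice were less abundant or less certain. *Atp2b4*, a plasma membrane calcium pump, was at 15.9, 19.3 and 15.1 CPM in controls and 33.7, 24.9 and 34.6 CPM in HD mice, with HD 2 the lowest of its group but above every control. *Irf7*, a transcription factor of the interferon response, was at 1.73, 1.26 and 1.52 CPM in controls and 3.37, 3.83 and 2.87 CPM in HD mice. *Tgm5*, a transglutaminase, was at 2.03, 1.84 and 2.12 CPM in controls and 3.78, 5.08 and 4.04 CPM in HD mice. *Irf7* and *Tgm5* were tight but low. None of the 3 genes was called by DESeq2 or by edgeR without covariates, and *Atp2b4* was called by edgeR with the first principal component as a covariate (adjusted p = 0.0171), a fit added after seeing the data. *Gm21992* was at 1.60, 1.73 and 1.33 CPM in controls and 4.34, 4.15 and 2.76 CPM in HD mice, but it is a readthrough gene that overlaps *Rbm4* and *Rbm14*, so reads can be split between them. Their summed level was 54.6, 53.4 and 69.9 CPM in controls and 70.2, 78.0 and 62.8 CPM in HD mice, which overlapped. ENSMUSG00000117748.1 carries the symbol *Chtf8*, as does an overlapping gene on the same strand of chromosome 8, and was at 0.0666, 0.252 and 0.19 CPM in controls and 13.7, 16.9 and 0.709 CPM in HD mice. HD 1 and HD 2 made this difference and HD 3 was close to the controls. DESeq2 called this identifier (adjusted p = 0.00198), and edgeR without covariates on the 6 libraries did not. The sum of both *Chtf8* identifiers was 97.9, 91.4 and 121 CPM in controls and 128, 130 and 86.0 CPM in HD mice, so the level of the locus as a whole overlapped between genotypes and the assignment of reads within it is uncertain.

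Among the lower genes, *Igfbp5* and *Grm4* were abundant. *Igfbp5* encodes a secreted protein that binds insulin-like growth factors, and was at 242, 297 and 209.8 CPM in controls and 96.0, 119 and 117 CPM in HD mice. The HD libraries were close to each other and all below the lowest control (log2 fold change −1.17, SE 0.188; adjusted p = 0.732 from edgeR and 0.000294 from DESeq2). *Grm4* encodes the presynaptic metabotropic glutamate receptor mGluR4, which granule cells carry on their parallel fibre terminals, and was at 519.8, 563 and 606 CPM in controls and 303, 340.3 and 226 CPM in HD mice. Again no HD library reached a control, with HD 3 the lowest (log2 fold change −0.96, SE 0.188; adjusted p = 0.99995 from edgeR and 0.0388 from DESeq2).

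Less abundant genes were chosen by the same rule. *Car9*, a membrane carbonic anhydrase induced by hypoxia, was at 12.0, 9.73 and 14.1 CPM in controls and 4.04, 3.65 and 2.84 CPM in HD mice (log2 ratio −1.77 with SE 0.25; adjusted p = 0.732 from edgeR and 2.93e-06 from DESeq2). *Chrnb4*, the β4 subunit of nicotinic acetylcholine receptors, was at 3.40, 3.21 and 4.11 CPM in controls and 0.487, 0.215 and 0.851 CPM in HD mice (log2 ratio −2.78 with SE 0.469; adjusted p = 0.81 from edgeR and 2.15e-05 from DESeq2). For both genes every HD library lay below every control, and the low counts of *Chrnb4* limit how exact its fold is. *Il20rb*, a cytokine receptor chain, was at 18.2, 15.5 and 19.5 CPM in controls and 9.51, 9.13 and 8.05 CPM in HD mice. *Rasal1*, a Ras GTPase activating protein, was at 7.09, 6.59 and 9.24 CPM in controls and 2.99, 2.69 and 1.42 CPM in HD mice. *Fut1*, a fucosyltransferase, was at 2.03, 1.30 and 2.18 CPM in controls and 0.412, 0.43 and 0.319 CPM in HD mice. All 3 were called by DESeq2, with adjusted p-values of 0.00957, 0.00362 and 0.00362, and none by edgeR without covariates on the 6 libraries. With the first principal component as a covariate, added after seeing the data, edgeR called all 3 (adjusted p = 0.0171, 0.0229 and 0.032). *Xlr3b*, an X-linked gene with near-identical copies, was at 6.89, 6.31 and 7.09 CPM in controls and 1.76, 2.72 and 2.16 CPM in HD mice. DESeq2 called *Xlr3b* (adjusted p = 4.1e-05) and edgeR without covariates did not. With the first principal component as a covariate, edgeR called it as well (adjusted p = 0.0211). The sum over the *Xlr3* copies was 7.39, 7.35 and 7.53 CPM in controls and 2.32, 2.97 and 3.15 CPM in HD mice, so the separation held for the sum of the copies.

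DESeq2 called 5 more genes, which are named because of those calls. *Dlk1*, a Notch ligand homologue, was at 5.06, 2.09 and 3.23 CPM in controls and 0.412, 0.859 and 1.03 CPM in HD mice. *Ccdc63* was at 6.13, 4.18 and 7.403 CPM in controls and 1.20, 2.58 and 1.21 CPM in HD mice. *Sfrp5*, a secreted Wnt antagonist, was at 3.995, 2.67 and 2.53 CPM in controls and 0.786, 1.04 and 1.28 CPM in HD mice. Each of these was lower in every HD library than in any control. *Ddn*, which encodes a dendritic protein of forebrain neurons, was at 0.766, 1.66 and 3.89 CPM in controls and 0.112, 0.215 and 0.39 CPM in HD mice. *Fam205a2* had no count in the 3 controls and was at 2.02, 2.04 and 1.13 CPM in HD mice, while its near-identical copy *Fam205a3* was at 2.13, 1.87 and 2.82 CPM in controls and 0, 0 and 0.957 CPM in HD mice. Summed over the *Fam205a* copies, the level was 2.20, 2.45 and 3.01 CPM in controls and 2.32, 2.11 and 2.27 CPM in HD mice. The copies together overlapped between genotypes, and only the copy to which the reads were assigned differed.

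**Figure D2:**
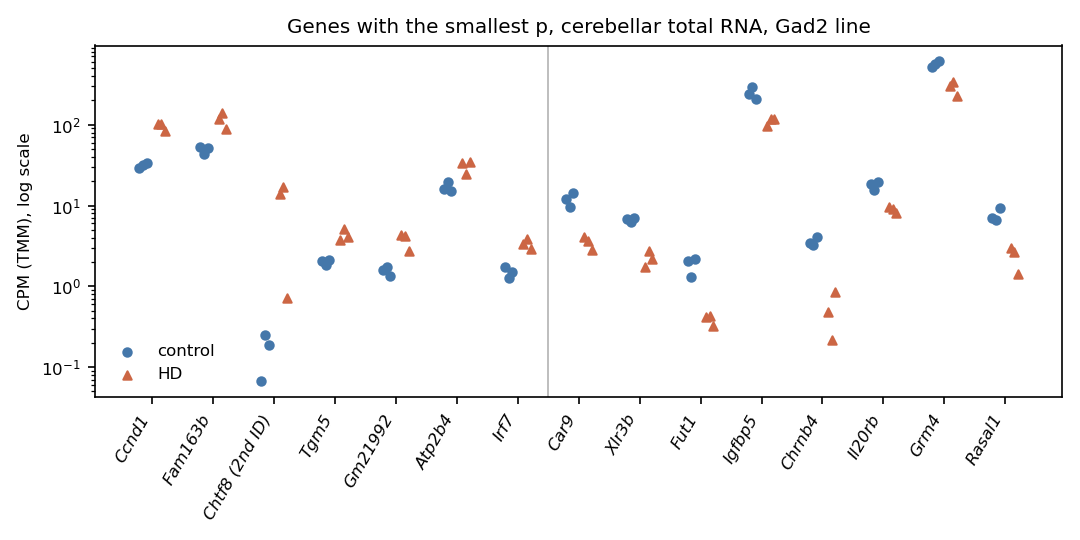
Levels (CPM after TMM, log scale) of higher (left) and lower (right) genes of smallest p in cerebellar total RNA of the Gad2 line, with 1 point per library (controls circles, HD triangles). The genes shown were chosen to have HD and control libraries that do not overlap. *Ccnd1*, for example, was at 29.5 to 33.2 CPM in controls and 82.9 to 103 CPM in HD mice. In the fit of the 6 libraries without covariates none passed edgeR.

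*Htt* itself, on chromosome 5 from 34761740 to 34912534, was at 128, 150.03 and 119 CPM in controls and 90.0, 82.6 and 111 CPM in HD mice. Its gene-level counts hold both alleles, and every HD library was below every control, although HD 3 lay close to control 3. The log2 fold change was −0.48 (SE 0.183), and the adjusted p of 0.99995 from edgeR did not pass. Of the other 9 genes in the list of huntingtin and its partners, none had an unadjusted p under 0.05, and *Hap1*, a trafficking partner of huntingtin, was at 95.02, 93.9 and 119 CPM in controls and 91.4, 115 and 83.8 CPM in HD mice. Within 20 Mb of *Htt*, 209 other genes were tested, with a median log2 fold change of 0.02 against 0.01 for all genes. There, 2 genes were higher at an unadjusted p under 0.05 and none was lower, against 0.787% and 1.43% of all genes. *Otof*, the calcium sensor otoferlin, was at 8.52, 8.83 and 9.27 CPM in controls and 14.7, 15.0 and 13.2 CPM in HD mice. *Adra2c*, an α2 adrenergic receptor, was at 14.2, 15.6 and 15.9 CPM in controls and 24.0, 34.5 and 20.4 CPM in HD mice. Groups near *Htt* did not overlap for 6 higher and 3 lower genes of the 209, against 2.88% and 3.18% of all genes, so these genes were not more often separated than others. The genes that define the line were similar between genotypes: *Gad2*, which synthesises GABA, was at 69.1, 115 and 77.5 CPM in controls and 61.3, 51.0 and 100.1 CPM in HD mice, and *Rpl22*, which carries the tag, at 122, 92.5 and 100.03 CPM and 116, 132 and 97.3 CPM, with overlapping groups for both. *Xist*, expressed from the inactive X chromosome, was at 0, 0 and 1.87 CPM in controls and 2.32, 0.609 and 4.43 CPM in HD mice, with overlapping groups. It was not tested because it is not a protein-coding gene.

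Cell cycle genes other than *Ccnd1* were mostly alike. Of 19 genes of the G1 to S transition, 1 was higher (*Ccnd1*) and 2 were lower at an unadjusted p under 0.05, against 0.787% and 1.43% of all genes, and the median log2 fold change of the G1/S cell cycle list was 0.08, but −0.03 without control 1 and −0.02 without HD 3. The partners of cyclin D1 overlapped between genotypes: *Cdk4* was at 58.2, 38.0 and 50.7 CPM in controls and 53.6, 62.7 and 35.2 CPM in HD mice, and the log2 fold changes of *Ccnd2* and *Ccnd3* were 0.31 (SE 0.291) and 0.16 (SE 0.281). *E2f1*, a transcription factor of S phase entry, was at 3.70, 3.13 and 3.61 CPM in controls and 2.21, 2.40 and 1.60 CPM in HD mice. *Plk5*, a polo-like kinase of postmitotic brain cells that lacks kinase function, was at 63.8, 47.3 and 67.8 CPM in controls and 28.9, 33.4 and 17.4 CPM in HD mice. Both were lower in every HD library, with log2 fold changes of −0.75 (SE 0.265) and −1.17 (SE 0.282), and neither was called by the test of edgeR without covariates or by DESeq2. *Plk5* was called by edgeR with the first principal component as a covariate (adjusted p = 0.00332) and with the ribosomal protein share (adjusted p = 0.0336), both added after seeing the data. *Cdkn1a*, the inhibitor p21, was at 18.98, 15.2 and 18.8 CPM in controls and 15.3, 19.5 and 13.6 CPM in HD mice, which overlapped.

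Of 27 subunits of Polycomb complexes PRC1 and PRC2, 19 had a positive log2 fold change, and 3 were higher and none lower at an unadjusted p under 0.05, against 0.787% and 1.43% of all genes. *Cbx8*, a subunit that reads the histone mark set by PRC2, was at 18.6, 10.1 and 17.4 CPM in controls and 33.1, 45.3 and 26.3 CPM in HD mice, and *Cbx2* at 5.63, 2.92 and 3.45 CPM in controls and 7.64, 7.88 and 5.00 CPM in HD mice. The groups of *Cbx8* did not overlap (log2 fold change 1.18, SE 0.304), while for *Cbx2* HD 3 lay below control 1 (0.77, SE 0.329). The related subunits *Cbx6* and *Cbx7* had log2 fold changes of 0.04 (SE 0.145) and 0.23 (SE 0.232). The catalytic PRC2 subunits *Ezh1* and *Ezh2* had log2 fold changes of 0.09 (SE 0.154) and −0.03 (SE 0.41), and the whole list had a median of 0.09. Neither *Cbx8* nor *Cbx2* was called by DESeq2 or by edgeR without covariates, and *Cbx8* was called by edgeR with the first principal component as a covariate (adjusted p = 0.0139), added after seeing the data.

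In the insulin-like growth factor system, *Igfbp5* was the only one of 13 genes at an unadjusted p under 0.05, against 1.43% of all genes that were lower. The median of the IGF system was −0.13, which turned to 0.16 without control 2 and was −0.38 without HD 3. The growth factor *Igf2*, abundant in choroid plexus and meninges, was at 369.9, 372 and 197 CPM in controls and 222, 190.5 and 281 CPM in HD mice. The receptor *Igf1r* was at 58.6, 96.7 and 46.5 CPM in controls and 48.6, 44.0 and 84.4 CPM in HD mice, which followed the libraries that stand apart and not genotype.

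Of 19 genes of vesicle fusion and exocytosis, *Otof* was higher and *Cplx3* lower at an unadjusted p under 0.05, against 0.787% and 1.43% of all genes. Groups did not overlap for 1 higher and 4 lower genes, against 2.88% and 3.18% of all genes. The median of vesicle fusion was −0.07, and 0.03 without HD 1. *Cplx3*, a complexin that clamps and aids SNARE-driven fusion, was at 3.70, 2.02 and 3.57 CPM in controls and 1.20, 1.15 and 0.886 CPM in HD mice (log2 fold change −1.52, SE 0.336). *Cplx2*, the abundant complexin, was at 1714, 1504 and 1556 CPM in controls and 1319, 1420 and 1038 CPM in HD mice. The calcium sensor *Syt7* was at 452, 435 and 431 CPM in controls and 353, 391 and 304 CPM in HD mice. Both, like *Doc2b*, were lower in every HD library by small margins, with log2 fold changes of −0.34, −0.33 and −0.26 and SEs of 0.165, 0.15 and 0.148. *Snap25*, a core SNARE protein, was at 2657, 4682 and 3463 CPM in controls and 2829, 1906 and 4375 CPM in HD mice and followed the library axis. Of the 15 cerebellar genes named in the paper, which the study chose on mice of this cohort and which are therefore not independent evidence, 5 were higher (*Ccnd1* and *Otof* among them) and 3 lower (*Igfbp5*, *Plk5* and *Cplx3*) at an unadjusted p under 0.05, against 0.787% and 1.43% of all genes. Their median was −0.13, and DESeq2 called 3 of them.

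Of the marker genes of Purkinje cells 1 of 16 was lower at an unadjusted p under 0.05, against 1.43% of all genes. All 16 had a negative log2 fold change, from −0.58 to −0.14 with a median of −0.30, while 6955 of all 14226 genes were negative and their median was 0.01. Their summed level was 10182, 10163 and 9183 CPM in controls and 7046, 7924 and 8524 CPM in HD mice, with no overlap but with HD 3 close to control 3. *Calb1*, a calcium buffer, was at 563, 794 and 762 CPM in controls and 557, 444 and 755 CPM in HD mice, and *Pcp2* at 648, 364 and 632 CPM and 482, 665 and 296 CPM, so these markers overlapped. The 16 genes of mGluR1 signalling in Purkinje cells, 7 of them also in the marker list, were likewise all negative, with a median of −0.28. Among these *Rgs8*, a brake on G protein signalling, was lower in every HD library, at 1719, 1580 and 1346 CPM in controls and 1246, 1281 and 1219 CPM in HD mice (log2 fold change −0.31, SE 0.146). *Itpr1*, the calcium release channel, was at 2163, 2753 and 1401 CPM in controls and 1117, 1058 and 2278 CPM in HD mice, and HD 3 exceeded controls 1 and 3. No gene of either list passed DESeq2 or edgeR without covariates. Markers of Golgi, basket and stellate cells had a median of −0.26, with 10 of 11 negative and none at an unadjusted p under 0.05.

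Granule cell markers were near the median of all genes: 9 of 14 were negative and the median was −0.07. The groups did not overlap for 2 of them, both lower, against 3.18% of all genes. *Cbln3* was at 1491, 1357 and 1889 CPM in HD mice against the 2104 to 2891 CPM of controls (log2 fold change −0.60, SE 0.197). *Cbln1*, its binding partner at parallel fibre synapses, was at 1368.5, 1245 and 1423 CPM in controls and 1068, 1219 and 930 CPM in HD mice, with HD 2 close to control 2 (−0.33, SE 0.156). *Slc17a7*, the vesicular glutamate transporter vGluT1, was at 955, 864 and 957 CPM in controls and 949, 1151 and 701 CPM in HD mice. *Gabra6*, a GABA-A subunit particular to granule cells, was at 346, 673 and 488 CPM in controls and 496, 305 and 658 CPM in HD mice. Thus both cerebellins were below controls, as was *Grm4*, while the other 12 markers of the list overlapped.

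Of 12 oligodendrocyte markers 10 had a negative log2 fold change. The median was −0.43, and it was smaller in size without control 3. Their summed level was 4690.4, 5081 and 5576 CPM in controls and 3794, 3880 and 3953 CPM in HD mice, without overlap. At an unadjusted p under 0.05, 3 were lower (*Mobp* and *Mal* among them), against 1.43% of all genes, and no marker passed DESeq2 or edgeR without covariates. *Mobp*, a basic protein of myelin, was at 389.9, 426 and 333 CPM in controls and 225, 229 and 346 CPM in HD mice, with HD 3 above control 3. *Mal*, a myelin proteolipid, was at 132, 149 and 148 CPM in controls and 106, 97.0 and 116 CPM in HD mice. *Mbp*, the most abundant of the list, was at 2344, 2005 and 2857 CPM in controls and 2067, 2111 and 1674 CPM in HD mice, and *Cnp* at 491, 384 and 569 CPM and 428, 592 and 430.2 CPM, so that these myelin genes overlapped. Of 5 markers of oligodendrocyte precursors, *C1ql1* alone was higher, at 4.59, 4.68 and 5.69 CPM in controls and 6.55, 7.70 and 8.54 CPM in HD mice (log2 fold change 0.61, SE 0.22). *Pdgfra*, the receptor that defines these cells, overlapped with a log2 fold change of −0.16 (SE 0.348).

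Astrocyte and Bergmann glia markers had a median of −0.22, with 12 of 13 negative. *Gfap* was at 141, 139 and 163 CPM in controls and 124, 130.1 and 109 CPM in HD mice, a small difference without overlap, and *Gdf10*, a marker of Bergmann glia, was at 218, 166 and 196 CPM in controls and 129, 167 and 105 CPM in HD mice, called only by edgeR with the first principal component as a covariate (adjusted p = 0.0382), added after seeing the data. Of 10 genes of the glial reaction, 8 were tested, none had an unadjusted p under 0.05 and the median was −0.04, but 0.06 without control 2 and 0.02 without control 3. Microglia markers had 12 of 13 positive log2 fold changes, a median of 0.18 and none at an unadjusted p under 0.05. Of 10 genes of the interferon response 9 were positive, with a median of 0.28, but only *Irf7* was separated between genotypes.

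Choroid plexus RNA differed between libraries by a large factor. *Ttr*, the transthyretin gene and the most abundant of the list, was at 5045, 2133 and 33.8 CPM in controls and 888, 24.4 and 1604 CPM in HD mice. All 7 markers of choroid plexus and ependyma had a negative log2 fold change, with a median of −1.52, but the summed levels of 5249, 2278 and 55.5 CPM in controls and 929, 41.1 and 1679.6 CPM in HD mice overlapped. In this list only *Foxj1*, which specifies ciliated ependymal cells, was separated, at 16.2, 10.1 and 8.70 CPM in controls and 6.40, 7.48 and 7.59 CPM in HD mice. *Igf2* and *Igfbp2* were highest in the controls with the most *Ttr* RNA, and the part of choroid plexus in their levels was not tested. The 9 markers of endothelium and pericytes had a median of −0.11, the 5 of meninges −0.08 and the 5 of blood −0.22, all with overlapping groups. Without control 1 the median of blood turned to 0.59, and that of meninges turned to 0.07 without control 2 and 0.05 without HD 3. The 2 markers of unipolar brush cells, *Eomes* and *Lmx1a*, had log2 fold changes of −0.20 and −0.63 and overlapped.

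Of 23 glutamate receptor subunits 21 had a negative log2 fold change, with a median of −0.24, and *Grm4* was the only one at an unadjusted p under 0.05, against 1.43% of all genes that were lower. *Grik1*, a kainate receptor subunit, was at 23.7, 20.03 and 20.7 CPM in controls and 17.9, 13.6 and 16.9 CPM in HD mice, without overlap (log2 fold change −0.41, SE 0.185). Of 18 membrane channels 14 were negative (median −0.19) and of 13 GABA-A subunits 11 (median −0.15), none with an unadjusted p under 0.05. Without control 2 the median of membrane channels turned to 0.01 and that of GABA-A receptor subunits to 0.22, and the latter was 0.12 without HD 2. Among the channels, the sodium channel *Scn1a* followed the library axis, at 84.7, 222 and 81.5 CPM in controls and 79.3, 45.9 and 182 CPM in HD mice. Of 15 striatal genes associated with HD, 14 were tested, none had an unadjusted p under 0.05 and the median was −0.17. The adenosine receptor gene *Adora2a* was at 2.16, 1.98 and 2.40 CPM in controls and 3.26, 4.58 and 2.55 CPM in HD mice, above controls without overlap, and the regulator of dopamine signalling *Ppp1r1b* was at 287, 194 and 247 CPM in controls and 180.02, 261 and 143 CPM in HD mice.

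Of 83 cytosolic ribosomal protein genes tested 79 were positive, with a median of 0.18, of 90 nuclear genes of oxidative phosphorylation 77 (median 0.14) and of 37 proteasome subunits 35 (median 0.15), while 10 of 13 mitochondrially encoded genes were negative (median −0.23). Without HD 2 the medians turned to −0.05 for cytosolic ribosomal proteins, −0.07 for nuclear oxidative phosphorylation and 0.08 for the mitochondrially encoded genes, the last also to 0.30 without control 2. Only *Ndufaf1*, an assembly factor of respiratory complex I, had an unadjusted p under 0.05 among these, against 0.787% of all genes that were higher, at 13.4, 13.01 and 14.8 CPM in controls and 17.4, 19.3 and 19 CPM in HD mice. The directions of these lists are those of the library axis described above, and the part of that axis in them was not tested. Heat shock proteins (13 genes, median −0.04), circadian clock genes (14, median −0.04), immediate early genes (11, median −0.01), cholesterol synthesis genes (16, median −0.16) and repeat expansion modifiers (10, median −0.02) held none at an unadjusted p under 0.05. Except for cholesterol synthesis, the sign of these medians turned when a library was left out, to 0.12 for heat shock proteins and 0.58 for immediate early genes without control 1, 0.06 for circadian clock without control 2 and 0.05 for repeat expansion modifiers without HD 1. *Msh3*, a mismatch repair gene that promotes repeat expansion, was at 12.7, 18.3 and 11.5 CPM in controls and 9.43, 7.12 and 19 CPM in HD mice.

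The same genes were looked up in cerebellar total RNA of the vGluT2 line, which came from 4 control and 4 HD mice and shares no library with the Gad2 line. There the test of edgeR called 3573 higher genes (24.4%) and 3992 lower genes (27.3%) of 14630 tested, so most genes tested there were called. *Ccnd1* was at 29.0 ± 0.749 CPM in the 4 controls and 98.0 ± 13.2 CPM in the 4 HD mice (mean ± SD), a log2 fold change of 1.76 (SE 0.125) beside the 1.61 of the Gad2 line. *Igfbp5* was at 274 ± 40.7 CPM and 108 ± 6.06 CPM (SD, n = 4 each), a log2 fold change of −1.34 (SE 0.13) beside −1.17. For *Fam163b* the values were 1.55 (SE 0.134) beside 1.25, for *Grm4* −0.81 (SE 0.168) beside −0.96, and for *Car9* −1.26 (SE 0.189) beside −1.77. All 5 passed the test of edgeR in the vGluT2 line. *Gm21992*, *Xlr3b*, *Atp2b4* and the *Chtf8* identifier did not pass there, and the last had a log2 fold change of the other sign, −1.05 (SE 1.12) beside 5.92 (SE 1.20). Of the other genes called by DESeq2, *Dlk1* (−0.82, SE 1.05), *Ddn* (−0.40, SE 0.948) and *Sfrp5* (0.09, SE 0.401, of the other sign) did not pass there either, *Ccdc63* did (−2.14, SE 0.252), and *Fam205a2* was not tested. Of the 104 higher genes at an unadjusted p under 0.05 without overlap in the Gad2 line and tested in both, 90 (86.5%) were also higher in the vGluT2 line, and of 166 such lower genes 127 (76.5%) were lower. Over all 14200 genes tested in both lines the shares were 66.4% and 66.7%, and Pearson's r of the log2 fold changes was 0.30 across genes, which are not independent replicates.

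**Figure D3:**
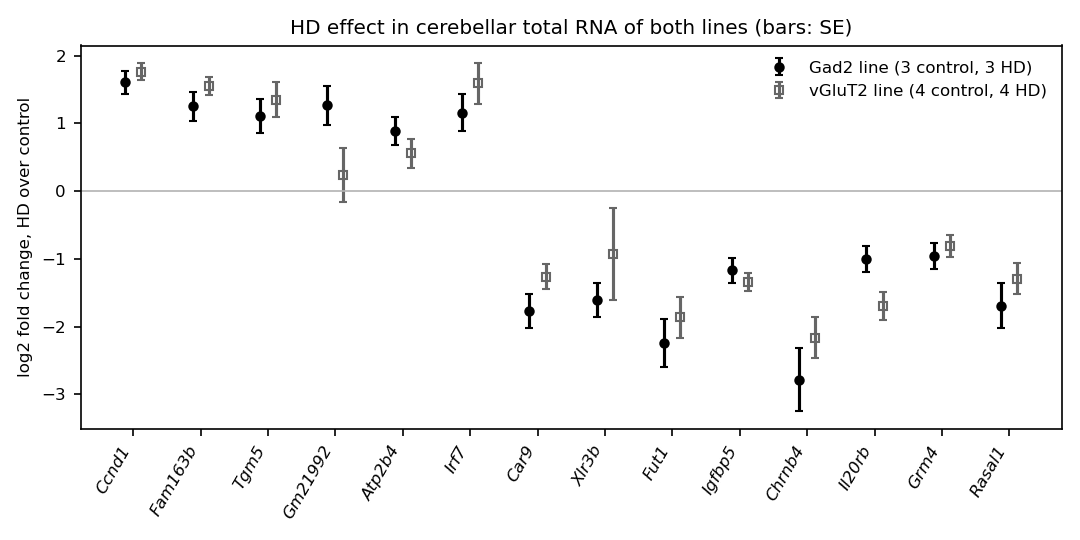
Log2 fold change of HD over control with its SE (bars) in cerebellar total RNA of the Gad2 line (filled circles, 3 control and 3 HD mice) and of the vGluT2 line (open squares, 4 and 4) for the named genes other than the *Chtf8* identifier. All 14 drawn have the same sign in both lines, from *Ccnd1* (1.61 and 1.76) to *Chrnb4* (−2.78 and −2.16). The identifier left out had opposite signs (5.92 and −1.05). *Gm21992*, *Xlr3b* and *Atp2b4* did not pass edgeR in the vGluT2 line.

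The difference of the HD effect between the lines was tested for each gene as an interaction over all 14 libraries, and edgeR called 249 of 14477 genes (1.72%), while DESeq2 called 1843. This count depended on single libraries: it was 3054 without HD 2 and 2447 without control 2 of the Gad2 line, 1 without HD 3, and 0 without control 1, control 3 or HD 1. None of the genes above with smallest p was among them: the difference (Gad2 line minus vGluT2 line) was −0.16 (SE 0.197, adjusted p = 0.598 from edgeR) for *Ccnd1* and 0.16 (SE 0.211, adjusted p = 0.621) for *Igfbp5*. *Gad2* itself was at 137 ± 27.2 CPM and 47.4 ± 4.82 CPM (SD, n = 4 each) in control and HD animals of the vGluT2 line, and the difference from the Gad2 line of 1.22 (SE 0.331) had an adjusted p of 0.0591 from edgeR, which did not pass. Of the genes in the lists, 8 passed (*Per3*, *Mlh3*, *Mag*, *Foxj1*, *Plcb4*, *Gria3*, *Fan1* and *Dhcr7*). *Plcb4*, a phospholipase of mGluR1 signalling, had a log2 fold change of −0.28 (SE 0.338) in the Gad2 line and −2.08 (SE 0.243) in the vGluT2 line. *Foxj1* had −0.71 (SE 0.277) and 0.74 (SE 0.19), and the clock gene *Per3* −0.11 (SE 0.169) and −1.39 (SE 0.158). In the vGluT2 line the ribosomal protein share was 1.76%, 1.69%, 2.22% and 1.72% in controls and 2.29%, 3.11%, 3.6% and 2.6% in HD mice, so there the library axis was separated by genotype. The median log2 fold change in that line ran from 0.37 for the shortest transcripts to −0.61 for the longest, against 0.07 and −0.08 in the Gad2 line. With the ribosomal protein share as a covariate, an alternative added after seeing the data, edgeR called 1239 genes in place of 7565 in the vGluT2 line and 146 in place of 249 for the difference between lines.

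IP libraries of the same 6 mice hold RNA bound to ribosomes of Gad2-expressing cells. Among them, the IP of the mouse of control 2 stands apart with 15289 genes above 0, against 20346 to 21966 in the other 5, and the IP of the mouse of HD 3 is a library that was sequenced again, with 93692505 counts. In a fit with the mouse as a block, 4384 genes (30.7%) were higher and 4409 (30.8%) lower in IP than in total RNA of 14298 tested, and without the mouse of control 2 the count was 9728 in place of 8793. All 16 Purkinje cell markers were higher in IP (median log2 1.80), as were all 11 of Golgi, basket and stellate cells (median 1.71), whereas all 14 granule cell markers were lower (median −1.76). *Ccnd1* was lower in IP by a log2 of −1.94 (SE 0.12), *Grm4* by −2.31 (SE 0.108), *Car9* by −2.32 (SE 0.219) and *Igfbp5* by −0.77 (SE 0.133). *Ccnd1*, *Grm4* and *Car9* were thus as low in IP as the granule cell and glial markers.

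The genotypes were also separated in the IPs for some of these genes. *Ccnd1* was at 10.3, 7.14 and 8.72 CPM in control IPs and 29.4, 20.7 and 17.3 CPM in HD IPs. *Grm4* was at 115, 125 and 101 CPM in control IPs and 58.5, 50.4 and 51.9 CPM in HD IPs, and *Igfbp5* at 118, 113 and 114 CPM and 77.2, 76.8 and 74.2 CPM. Each differed in the same direction as in total RNA, without overlap, and RNA of other cells carried into the IP was not tested as a source. *Fam163b* was at 17.3, 29.8 and 19.7 CPM in control IPs and 24.0, 24.3 and 23.3 CPM in HD IPs, which overlapped. *Plk5*, lower in IP than in total RNA, was at 28.2, 30.1 and 16.6 CPM in control IPs and 9.04, 8.47 and 6.62 CPM in HD IPs. *Htt* was at 105, 126 and 102 CPM in control IPs and 73.2, 71.9 and 70.2 CPM in HD IPs, again lower in every HD mouse. The HD effect in IP minus that in total RNA, tested in the same 12 libraries, was called by edgeR for 0 of 14298 genes (0%), with 62 at an unadjusted p under 0.05, and DESeq2 called 1, the *Chtf8* identifier ENSMUSG00000117748.1. For *Ccnd1* this difference was −0.25 (SE 0.241), for *Fam163b* −1.07 (SE 0.323) and for *Igfbp5* 0.59 (SE 0.196), beside its HD effect of −1.17 in total RNA, and none of these was called. The IP and total RNA of a mouse share the animal, so they are no independent samples of genotype.

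The call of *Ccnd1* changed with the fit: the adjusted p of edgeR was 0.000327 when all 14 cerebellar total RNA libraries shared a fit, in which 7 genes of the Gad2 line passed (*Ccnd1*, *Car9*, *Igfbp5*, *Fam163b*, *Fut1* and *Chrnb4* among them), and 0.00185 with the first principal component as a covariate, in which 33 passed. Without control 2 and HD 3 together, 5 genes passed (*Ccnd1*, with an adjusted p of 0.0213 from edgeR, the *Chtf8* identifier, *Gm45140*, *Fam205a2* and *Fam205a3*). The covariate and the fit of 4 libraries were added after seeing the data. The adjusted p of *Ccnd1* ran from 1.57e-11 to 1 over 17 alternatives of edgeR and DESeq2 while its log2 fold change stayed between 1.54 and 1.71. There were 3 mice per genotype, and the labels give neither sex nor values of RNA integrity. The levels of *Ccnd1*, *Igfbp5* and *Grm4* are therefore those of the mice sampled at a single age. These libraries give neither cell numbers nor protein. Tissue sections that the paper stained, among them for *Ccnd1* RNA in the cerebellum, were not part of these data.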

How the data were processed

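The deposited table holds estimated counts per gene, which the authors made with nf-core/rnaseq 3.0 (STAR and Salmon, GRCm38.p6). Of the values in the 6 libraries 9.44% were not whole, and all were rounded. Spike-ins were left out. Gene types, positions and transcript lengths came from GENCODE M21, which held 55141 of 55401 genes; the annotation release of the authors is not given. Genes of protein-coding type were tested if their mean count exceeded 10, with edgeR 4.0.16 (TMM, quasi-likelihood F test) in R 4.3.3, with Benjamini-Hochberg adjustment over all genes tested and a call at 0.05. SE is the absolute log2 fold change over the root of F. DESeq2 1.42.0 was the other tool. Genes were named if called with groups that do not overlap; as fewer than 8 were called, each direction was filled to 8 by smallest p with a mean of at least 1 CPM. Not every gene so chosen is printed. *Htt*, *Gad2*, *Rpl22* and *Xist* are given whatever their values, as are list members. The members and lists were chosen with earlier results of these data known. Some alternatives were added after seeing the data and are named as such. Figures were drawn with matplotlib 3.10.9.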

Additional observations from a re-analysis of the deposited data

Results flagged for a closer look

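The HD effect differed between the Gad2 and the vGluT2 line in cerebellar total RNA for 249 genes by the interaction test of edgeR, which is why this count is listed. In the vGluT2 line *Grm4* was at 252 CPM in HD 3 and at 293, 297 and 299 CPM in the other HD libraries, so the lowest library lay far from the other 3 of its group. *Gad2* was at 40.2 CPM in the same library and at 49.3, 49.7 and 50.4 CPM in the others, listed for the same reason. Of 40 groups of 4 libraries examined, 2 were past the critical value, and chance gives 2.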

How the results depend on the processing

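In the Gad2 line the count of called genes was 0 with edgeR and stayed 0 with DESeq2 size factors, without a filter, with filterByExpr, with all gene types and with *Xist* as a covariate, while DESeq2 called 17 and the fit of all 14 libraries 7. Leaving out each library in turn gave 0 to 1, the 1 being ENSMUSG00000117748.1 without HD 3. Of the fits added after seeing the data, 4 libraries gave 5, the first principal component 33 and the ribosomal protein share 6. The replicate numbers do not pair the libraries (same-numbered deviations had r of −0.01, −0.85 and −0.61), and a replicate block gave 0 calls, with 104 genes at an unadjusted p under 0.05. For the named genes no alternative reversed the direction, and 38 values newly passed. Most named genes were chosen because their groups did not overlap, so an unchanged direction gives no separate support for them. List medians moved in 33 of the values and were the same in 562. The median of the IGF system (−0.13) became 0.16 without control 2 and −0.38 without HD 3, that of blood (−0.22) 0.59 without control 1, and that of oligodendrocytes (−0.43) −0.26 without control 3, while that of Purkinje cells (−0.30) ran from −0.36 without HD 3 to −0.25 without HD 1. In the vGluT2 line 7565 calls became 7937 with DESeq2 and 6137 to 7811 without each library, and 1239 with the ribosomal protein share (added). The 249 genes that differ between lines became 1843 with DESeq2, 180 with DESeq2 size factors, 105 without a filter, 240 with filterByExpr, 159 with all gene types and 146 with the ribosomal protein share (added). Without each library that count ran from 0 to 3054: 2447 without control 2, 3054 without HD 2, 1 without HD 3 and 0 without control 1, control 3 or HD 1 of the Gad2 line, and 600 without HD 1, 307 without control 3 and 0 without control 1, 2 or 4 or HD 2, 3 or 4 of the vGluT2 line. For the HD effect in IP minus total RNA 0 calls became 1 with DESeq2 and 0 with all 18 libraries, and 0 to 1 without each mouse, the 1 without that of HD 3. IP against total RNA had 8793 calls, 9296 with DESeq2, 8623 with all 18 libraries and 7584 to 9728 without each mouse (added).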
